A study of Mus musculus with 37 samples.

Results

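Neutrophils store antimicrobial proteins and proteases in secondary (specific) and tertiary (gelatinase) granules, and 10 genes linked to these granules were followed in mouse bone marrow and spleen during repeated social defeat. The genes were Camp, Ngp, Ltf, Lcn2, Mmp8, Mmp9, Chil3, Cd177, Ly6g and Ltb4r2, taken by symbol from a table of 35885 genes. Of these 10, 9 passed a filter on low values in each tissue; Ltb4r2 did not. The animals were wild-type C57BL/6N mice, and no age is given in the sources used here. Social defeat places a mouse with an aggressive opponent. Mice met it on 1, 4 or 10 occasions at 1 per day, a further group then rested for 1 week after 10 defeats, and controls were never defeated. Cells flushed from the femur gave 19 marrow libraries (3 control, 4 after 1 defeat, 3 after 4 defeats, 5 after 10 defeats, 4 rested), and whole spleen gave 18 (4, 2, 2, 6 and 4 in the same order). Libraries were biological replicates of polyadenylated RNA and are named here by the number in their title, such as C1 or D12.

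Granules form in sequence while neutrophils mature in the marrow: primary granules with myeloperoxidase and serine proteases come first, then secondary granules with lactoferrin and cathelicidin, then tertiary granules rich in gelatinase. Transcription of the secondary set depends on the factor C/EBP-epsilon and is largely shut down before the cell leaves for the blood, so high transcript levels mark developing rather than circulating neutrophils. Among the 10 genes, Camp (cathelicidin), Ngp (neutrophilic granule protein), Ltf (lactoferrin) and Lcn2 (lipocalin that binds bacterial iron carriers) encode antimicrobial contents, Mmp8 (neutrophil collagenase) and Mmp9 (gelatinase B) encode proteases, Chil3 (Ym1) encodes a chitinase-like lectin, and Cd177 a membrane glycoprotein of the secondary granule. Ly6g encodes the surface antigen used to identify mouse neutrophils, and Ltb4r2 a low-affinity leukotriene B4 receptor that is not a granule protein.

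The genes lie on several chromosomes (GRCm38, GENCODE M21). Camp (chr9:109847379-109849617, minus strand), Ngp (chr9:110419747-110423012, plus strand) and Ltf (chr9:111019271-111042767, plus strand) follow each other on chromosome 9 with gaps of 0.570 and 0.596 Mb, and Mmp8 (chr9:7558456-7568485, plus strand) lies far from them on the same chromosome. No gene annotated there overlapped a member. RefSeq promoters of GRCm38.p6 (250 bases before and 50 after the start) were matched for 8 of the 10, all but Mmp9 and Ltb4r2. A C/EBP motif, searched as TTNNGNAA on both strands, was found in 7 of these 8 and in 40.7% of 27025 promoters of the same length, and 2 or more matches in 5 of 8 against 13.6%. The PU.1 core GAGGAA was found in 5 of 8 against 28.3%, and TATAAA in 4 of 8 against 14.2%. Below are the bases before the start of the 5 genes with at least 2 C/EBP matches, which are set in capitals: Ngp (chr9:110419558-110419746, plus strand), Ltf (chr9:111019042-111019270, plus strand), Mmp8 (chr9:7558179-7558428, plus strand), Chil3 (chr3:106167565-106167814, minus strand) and Ly6g (chr15:75155011-75155239, plus strand), each read 5′ to 3′ on the strand of its gene. They are shown because the factor of these granule genes belongs to the C/EBP family, and a match is a description of the letters, not a bound site. Each run ends before the earlier of the RefSeq and GENCODE starts.
Ngp: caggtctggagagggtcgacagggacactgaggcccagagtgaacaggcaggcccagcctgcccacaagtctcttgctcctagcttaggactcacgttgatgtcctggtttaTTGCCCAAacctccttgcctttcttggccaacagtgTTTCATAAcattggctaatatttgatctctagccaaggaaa
Ltf: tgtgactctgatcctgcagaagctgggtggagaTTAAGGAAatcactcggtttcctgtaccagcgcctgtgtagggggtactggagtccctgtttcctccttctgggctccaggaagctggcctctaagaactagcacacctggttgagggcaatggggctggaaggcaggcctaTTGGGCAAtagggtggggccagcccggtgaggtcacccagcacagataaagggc
Mmp8: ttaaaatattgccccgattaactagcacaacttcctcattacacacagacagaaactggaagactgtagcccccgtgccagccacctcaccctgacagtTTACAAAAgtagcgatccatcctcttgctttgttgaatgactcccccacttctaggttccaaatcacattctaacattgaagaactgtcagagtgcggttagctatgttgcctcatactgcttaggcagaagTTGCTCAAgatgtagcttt
Chil3: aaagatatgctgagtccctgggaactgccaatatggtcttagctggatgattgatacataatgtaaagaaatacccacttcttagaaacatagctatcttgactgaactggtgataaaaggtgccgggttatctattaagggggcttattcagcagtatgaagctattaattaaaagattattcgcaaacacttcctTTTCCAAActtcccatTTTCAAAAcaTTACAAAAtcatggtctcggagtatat
Ly6g: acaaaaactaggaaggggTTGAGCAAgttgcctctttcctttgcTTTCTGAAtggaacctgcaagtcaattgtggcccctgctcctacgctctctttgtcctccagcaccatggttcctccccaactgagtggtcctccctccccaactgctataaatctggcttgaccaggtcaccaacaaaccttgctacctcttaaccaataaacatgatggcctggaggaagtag
Chil3 shows 3 matches in capitals and the other 4 genes show 2 each. Ngp has a further match, TTGGGCAA, that begins 11 bases before its RefSeq start and lies past the end of the run shown. The promoter of Camp held no match to the C/EBP letters. The windows follow the RefSeq start, and only 89 bases of that of Camp lie before its GENCODE gene. That of Lcn2 (chr2:32387690-32387989, minus strand) lies wholly within its GENCODE gene.

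Values are a signal per gene and library that the authors scaled per library; they behave as abundances per transcript length, so levels of different genes can be set side by side. Library totals ran from 658000 to 2650000, and depth, estimated from the steps between low values, from 3.56 to 34.6 M reads. Of the 18 spleen libraries, 6 stood apart: D6, D7, D9 and D10 after 10 defeats and D1 and D2 of the rested group. In these, long transcripts were low relative to short ones (slope of the log2 difference from control on log2 length −0.358 to −0.228, against −0.0771 to 0.12 elsewhere). Globin made up 27.8% to 58.8% of their signal and 1.74% to 39.8% of that of the other spleen libraries, so globin alone did not separate them. Member differences from control after 10 defeats or rest, from 4 to 10 defeats and between tissues are given with and without them. In spleen, the step from 1 to 10 defeats, rest against 10 defeats, correlations and all results of other genes are given only with them. Of these 6 libraries, all but D1 also had the highest totals, from 1539200 (D9) to 2652300 (D2). The total of D1 was 997820, and spleen libraries outside the 6 ran from 657920 (D14) to 1015800 (D3). Signals of single libraries are given as the authors scaled them, without setting totals equal. Tissue labels matched their cell markers: 10 mature B cell genes summed to 2480 to 2671 in control spleen and to 902 to 1253 in control marrow, and 11 erythroid genes to 348000 to 450420 in control marrow and 88847 to 204420 in control spleen. In such bulk samples, more cells of a type and more RNA per cell cannot be told apart.

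In control marrow the granule genes were among the most abundant transcripts of the tissue. The signal of Ngp in C1, C2 and C4 was 6915, 7213 and 6281, ranks 7 to 8 among all genes. Camp followed at rank 15, Lcn2 at ranks 17 to 18, Ltf at 19 to 22 and Chil3 at 33 to 37, while Mmp9, Mmp8, Cd177 and Ly6g lay between ranks 185 and 543. Together the 10 genes took 1.91% to 1.99% of the signal of control marrow and 0.00542% to 0.011% of that of control spleen. Control spleen was lower than control marrow for 9 of 9 genes tested (19.2% of 14513 genes were lower; limma, adjusted p under 0.05). The gap on the log2(signal + 1) scale was largest for Ngp at −8.78 ± 0.58 (SE) and smallest for Mmp9 at −6.38 ± 0.43. These 2 tissues differ in cell makeup, so the gap compares organs, not cells.

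After 1 defeat, no granule gene was called different in marrow. The test was limma on log2(signal + 1) with Benjamini-Hochberg adjustment over 12442 genes, called at an adjusted p under 0.05; it called 0.00804% of all genes, a single gene, while 535 genes had an unadjusted p under 0.05. Values of all 9 genes overlapped those of controls. The signal of Camp was 3573, 4334, 6186 and 4289 in D15 to D18, against 3767, 3789.5 and 3109 in controls (difference 0.35 ± 0.21, adjusted p 0.904). Library D17 had the highest value of all 9 genes in its group. The lowest of the differences was that of Mmp8, at 0.00 ± 0.19.

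After 4 defeats, 5 of 9 granule genes rose in marrow, where 7.07% of all genes rose. They were the 4 antimicrobial genes and Cd177. The signal of Ltf was 2526, 2711 and 2274 in controls and 3944, 7780.1 and 5008 in D11, D12 and D14. All stressed libraries lay above all controls, and the difference was 1.10 ± 0.28 (limma adjusted p 0.0138, 2.14-fold). Cd177 rose by 1.09 ± 0.26 (adjusted p 0.0103), from 346, 356 and 314 to 513, 1025 and 707. Lcn2 rose by 1.05 ± 0.27, Ngp by 0.93 ± 0.27 and Camp by 0.78 ± 0.22 (adjusted p 0.0145, 0.0233 and 0.0233).

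The proteases were not called at this time. Mmp8 was at 382, 398 and 390.1 in controls and at 325, 513 and 373 after 4 defeats, overlapping groups with a difference of 0.02 ± 0.20 (limma adjusted p 0.943). Mmp9 differed by 0.54 ± 0.23, Chil3 by 0.59 ± 0.26 and Ly6g by 0.53 ± 0.22 (adjusted p 0.107, 0.11 and 0.0914). All stressed libraries lay above all controls for 8 of 9 genes, all but Mmp8, and the same held for 15.4% of all genes. The median difference was 0.78 over the 9 genes and −0.11 over all genes. These calls depended on single libraries: D12 was the highest of its group for 9 of 9 genes, and without it 0 of 9 genes were called, with Ltf at 0.83 (adjusted p 0.0856). Leaving out control C2 or C4 left 3 and 1 called, and quantile normalization left 3 (Ltf, Lcn2 and Cd177).

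**Figure D1:**
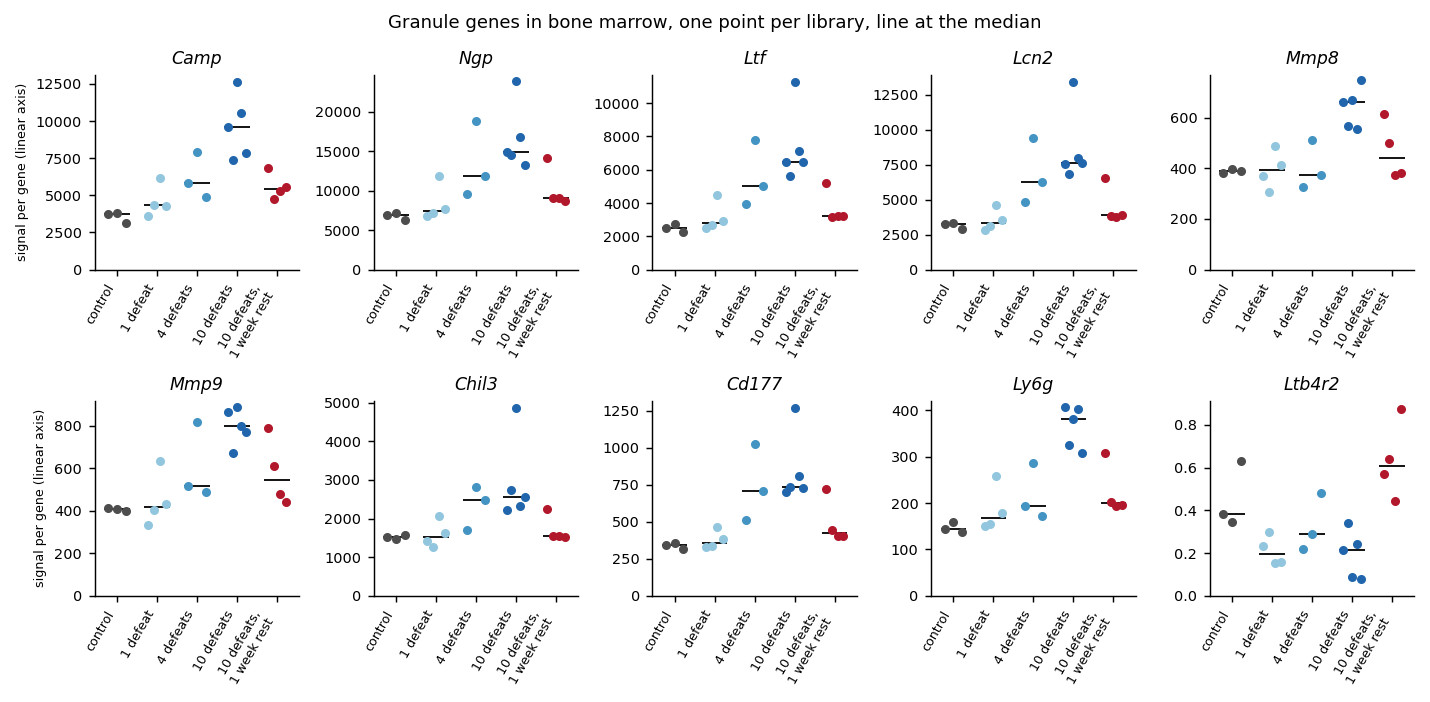
Signal per gene (linear axes from 0) in each of 19 bone marrow libraries by group; points are libraries and lines are group medians. For 9 genes the 5 libraries with 10 defeats lie above the 3 controls, while Ltb4r2 stays under 1 throughout.

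After 10 defeats, 9 of 9 granule genes rose in marrow, against 17.5% of all genes. The signal of Ltf reached 5603, 11275, 7152, 6480.0 and 6440.0 in D5, D6, D7, D9 and D10. Every library lay above the highest control, 2711, and the rise was 1.52 ± 0.25 (limma adjusted p 0.000321, 2.87-fold). Camp reached 7378, 12653, 10518, 7877 and 9578, a rise of 1.41 ± 0.20 (adjusted p 0.000141, 2.66-fold), and moved up to ranks 9 to 13 among all genes. Lcn2 rose by 1.41 ± 0.24, Ngp by 1.26 ± 0.24 and Cd177 by 1.29 ± 0.23 (adjusted p 0.000421, 0.000768 and 0.000568).

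Ly6g, at 144, 158 and 137 in controls, was at 325, 381, 403, 307 and 407 after 10 defeats, a rise of 1.30 ± 0.20 (limma adjusted p 0.000183). Mmp8, at 567, 671, 554, 749 and 664, had the smallest rise, 0.71 ± 0.18 (adjusted p 0.00498, 1.63-fold). Mmp9 rose by 0.96 ± 0.21 and Chil3 by 0.89 ± 0.23 (adjusted p 0.00182 and 0.00556). All libraries with 10 defeats lay above all controls for 9 of 9 genes, as for 19.4% of all genes. The median difference was 1.29 against −0.13 over all genes. The 10 genes then made up 4.17% to 6.57% of the signal. Quantile normalization, which forces equal distributions, left 6 of 9 called: Ngp fell short at 0.31 (adjusted p 0.356), Mmp8 at 0.26 (0.195) and Chil3 at 0.43 (0.0561), and Camp stood at 0.35 (0.0136).

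The step from 1 to 10 defeats was also called for 9 of 9 genes (17.6% of all genes rose), from 1.28 ± 0.22 for Lcn2 to 0.71 ± 0.17 for Mmp8. Under quantile normalization 6 were called, and Ngp at 0.37, Ltf at 0.43 and Mmp8 at 0.36 were not (limma adjusted p 0.231, 0.0651 and 0.0573). This comparison shares its 10-defeat libraries with the one against controls. Between 4 and 10 defeats, Ly6g rose by 0.77 ± 0.20 (limma adjusted p 0.0443; 1.66% of all genes rose). Mmp8 differed by 0.68 ± 0.18 (adjusted p 0.053). For these 2 genes all libraries with 10 defeats lay above all those with 4, as in 5.59% of all genes. Libraries of the other 7 overlapped. The call for Ly6g was lost without D11, D14, D6, D7, D9 or D10, with differences of 0.62 to 0.83.

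After 1 week of rest, marrow values stood between those of 10 defeats and controls. The signal of Ltf was 5226, 3188, 3230.4 and 3192 in D1, D2, D3 and D8, below every 10-defeat library and above every control. Against 10 defeats, 8 of 9 genes fell (7.91% of all genes fell): Ltf by 0.98 ± 0.23 (limma adjusted p 0.0089), Lcn2 by 0.94 ± 0.22, Cd177 by 0.78 ± 0.21, Camp by 0.76 ± 0.18, Chil3 by 0.73 ± 0.21, Ly6g by 0.71 ± 0.18, Ngp by 0.70 ± 0.22 and Mmp8 by 0.47 ± 0.17 (adjusted p 0.0482). Mmp9 differed by −0.49 ± 0.19 (adjusted p 0.0728). For Camp, Ltf and Lcn2 all rested libraries lay below all those with 10 defeats, as for 5.39% of all genes. D1 had the highest value of the rested group for 9 of 9 genes; Ngp was 14149 there and 8665 to 9093 in the other 3. Without D2, D3 or D8 the count of falls was 4, and under quantile normalization it was 0.

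Against controls, the rested group had no call among the 9 genes and none over the transcriptome (0%; 1768 genes had an unadjusted p under 0.05). Camp differed by 0.65 ± 0.21 (limma adjusted p 0.216), with 6837, 4757, 5281 and 5584 against controls of 3109 to 3789.5. All rested libraries lay above all controls for 7 of 9 genes, all but Mmp8 and Chil3, as for 9.73% of all genes. The median difference was 0.50 over the 9 genes and −0.02 over all.

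**Figure D2:**
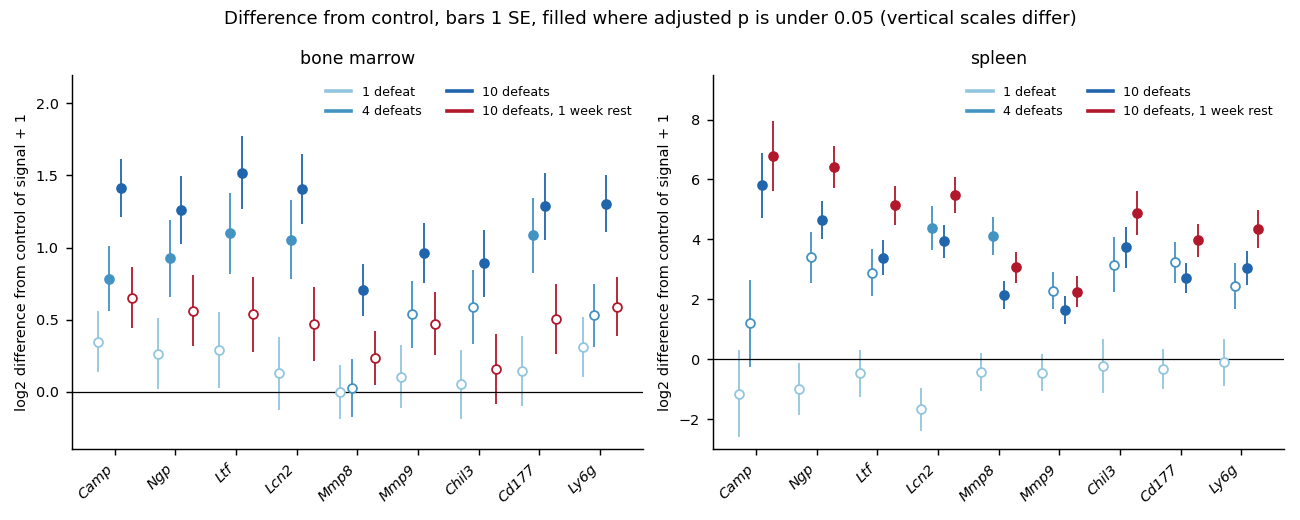
Difference from control on the log2(signal + 1) scale per gene, group and tissue, with bars of 1 SE; filled points have a limma adjusted p under 0.05. In marrow the largest differences are those after 10 defeats (up to 1.52 for Ltf), whereas in spleen those of the rested group are the largest for 7 of 9 genes, and Mmp8 and Mmp9 (2.30 against 2.26) are largest after 4 defeats.

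Other genes of the neutrophil lineage moved with these in marrow. Of 9 primary granule genes tested, 9 rose after 4 defeats (median 1.26), led by Prtn3 (proteinase 3) at 1.99 ± 0.27, Ctsg (cathepsin G) at 1.70 ± 0.30 and the serine protease Prss57 at 1.51 ± 0.28 (limma adjusted p 0.00119, 0.00304 and 0.00332). After 10 defeats 9 of 9 rose again (median 1.10), with Prtn3 at 1.76 ± 0.24, Ctsc (cathepsin C, which activates these proteases) at 1.69 ± 0.24 and Cd63 (a granule membrane protein) at 0.86 ± 0.15. Of 15 other secondary and tertiary granule genes, 4 rose after 4 defeats (median 0.49). After 10 defeats 10 rose and 2 fell (median 0.86), with Pglyrp1 (a peptidoglycan-binding protein) at 1.49 ± 0.22, Hp (haptoglobin) at 1.34 ± 0.20 and Cyba (an NADPH oxidase subunit) at 1.06 ± 0.16. Of 15 late neutrophil and secretory vesicle genes, 5 rose after 4 defeats. After 10 defeats 12 rose and 1 fell, with Alox5ap (which enables leukotriene synthesis) at 1.54 ± 0.22, the lectin receptor Clec4e at 1.79 ± 0.27 and S100a9 (a calprotectin subunit) at 1.63 ± 0.25. Over all genes 7.07% rose and 13% fell after 4 defeats, and 17.5% rose and 28.3% fell after 10.

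Transcription factors of the granulocyte lineage moved in both directions in marrow. Of 10 tested, 5 rose and 2 fell after 4 defeats, where 7.07% of all genes rose and 13% fell. After 10 defeats 6 rose and 2 fell, where 17.5% of all genes rose and 28.3% fell. Cebpe, the factor of secondary granule genes, rose by 1.13 ± 0.23 after 4 defeats (limma adjusted p 0.00455), from 62.7 to 76.3 in controls to 129 to 217. After 10 defeats Klf5 rose by 1.35 ± 0.18 and Cebpb, the factor of emergency granulopoiesis, by 1.95 ± 0.27 (adjusted p 9.92e-05 and 0.000125). Myb, a factor of dividing progenitors, fell by 0.65 ± 0.11 and 1.05 ± 0.10 at these times, and Irf8, a factor of the monocyte branch, fell by 0.63 ± 0.13 after 4 defeats. After rest against 10 defeats, Cebpb fell by 1.31 ± 0.25 and Klf5 by 0.84 ± 0.16, and Myb rose by 0.77 ± 0.09.

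Markers of other cells changed in the same marrow libraries. Of 10 mature B cell genes, 9 fell after 10 defeats (median −2.85), and their summed signal went from 902 to 1253 in controls to 224 to 397. Of 11 erythroid genes, 8 fell, with sums of 118250 to 280560 against 348000 to 450420, and globin went from 38.7% to 44.3% of the signal in controls to 11.1% to 26.8%. Of 10 monocyte genes, 7 rose (sums 2114 to 2807 against 1099 to 1159). Of 9 eosinophil genes, 5 fell and none rose (median −0.88; sums 335 to 1155 against 810.0 to 1228). None of the erythroid, B cell, monocyte or eosinophil genes was at 0 in every library of either group. Whether these shifts contribute to the granule gene values was not tested. Rested marrow had no call against controls in any of these lists.

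**Figure D3:**
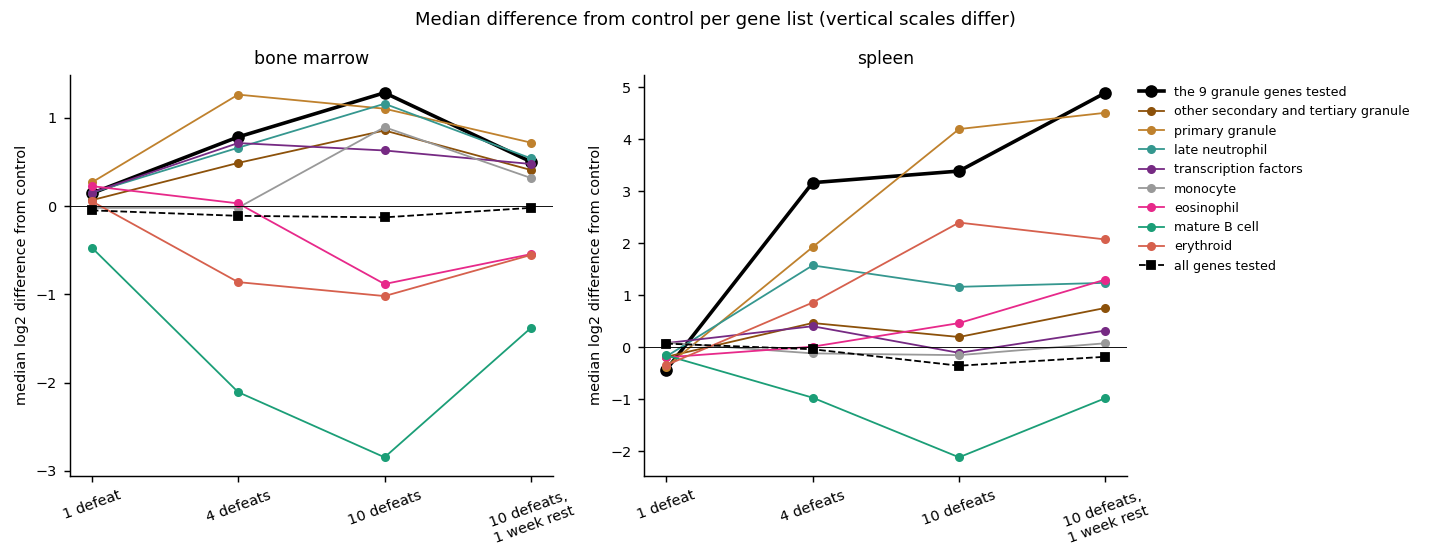
Median log2 difference from control of the 9 granule genes, of 8 gene lists and of all genes tested, by group (vertical scales differ between tissues). In marrow the granule, primary granule and late neutrophil medians are highest after 4 or 10 defeats and the B cell median is lowest after 10 (−2.85); in spleen the granule median is 3.39 after 10 defeats and 4.89 after rest.

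In spleen the same genes started from low values. The signal of Ltf was 3.21, 5.68, 8.92 and 4.39 in control spleens, that of Camp 11.4, 8.09, 26.3 and 5.24, and that of Mmp8 0.727, 0.862, 1.02 and 1.59. For genes near 1 the added pseudocount of 1 understates fold changes. After 1 defeat none of the 9 genes was called (0.688% of 13945 genes were). Both libraries lay below all 4 controls for Camp, Ngp, Lcn2, Mmp8 and Chil3, that is for 5 of 9 genes against 16.9% of all genes. Lcn2, at 2.07 and 2.24 against 6.71 to 15.9, differed by −1.67 ± 0.73 (limma adjusted p 0.29).

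After 4 defeats 2 of 9 genes rose in spleen, of 6 genes (0.043%) that rose in the whole table. Lcn2 was at 532 in D13 and 80.7 in D14, a rise of 4.38 ± 0.73 (limma adjusted p 0.0399, 20.8-fold). Mmp8 was at 69.6 and 16.5, a rise of 4.12 ± 0.63 (adjusted p 0.0219, 17.4-fold). Both libraries lay above all controls for 8 of 9 genes, as for 13.1% of all genes. Camp, at 39.9 and 16.9, overlapped its controls (1.20 ± 1.45). The median difference over the 9 genes was 3.16, against −0.04 over all genes. With 2 libraries the count depended on each: it was 0 without D13 or without control C1, C2 or C4, and 6 without D14.

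After 10 defeats 9 of 9 granule genes rose in spleen, against 16.8% of all genes. Camp ranged from 49.7 in D4 over a median of 1190 to 4129 in D6, a rise of 5.80 ± 1.08 (limma adjusted p 0.000725, 55.9-fold). Ltf ranged from 22.1 over a median of 63.9 to 149.6, a rise of 3.39 ± 0.58 (adjusted p 0.000478, 10.5-fold). All 6 libraries lay above all controls for 9 of 9 genes, as for 10.4% of all genes. Ngp rose by 4.64 ± 0.64, Lcn2 by 3.94 ± 0.55, Chil3 by 3.74 ± 0.67, Ly6g by 3.05 ± 0.58, Cd177 by 2.72 ± 0.50, Mmp8 by 2.15 ± 0.47 and Mmp9 by 1.65 ± 0.47 (adjusted p 0.000129 to 0.00794).

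Of these 6 libraries, 4 are among those low in long transcripts, and D4 and D5 are the remaining 2. Camp was at 49.7 and 144 in D4 and D5 and at 739 to 4129 in the other 4. Without the 6 libraries set apart, 5 of 9 genes were called: Ngp at 3.49, Lcn2 at 3.08, Camp at 2.86, Chil3 at 2.26 and Ly6g at 1.68 (limma adjusted p 0.0156, 0.0138, 0.0141, 0.0386 and 0.00216). Ltf at 2.43, Cd177 at 1.70, Mmp8 at 1.37 and Mmp9 at 1.05 had adjusted p from 0.0503 to 0.0577. With the length trend of each library removed instead, the count was 9, with Camp at 5.53. The Camp transcript is short at 758 bp, against 2425 bp for Mmp8 and 2743 bp for the longest transcript of Ltf.

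**Figure D4:**
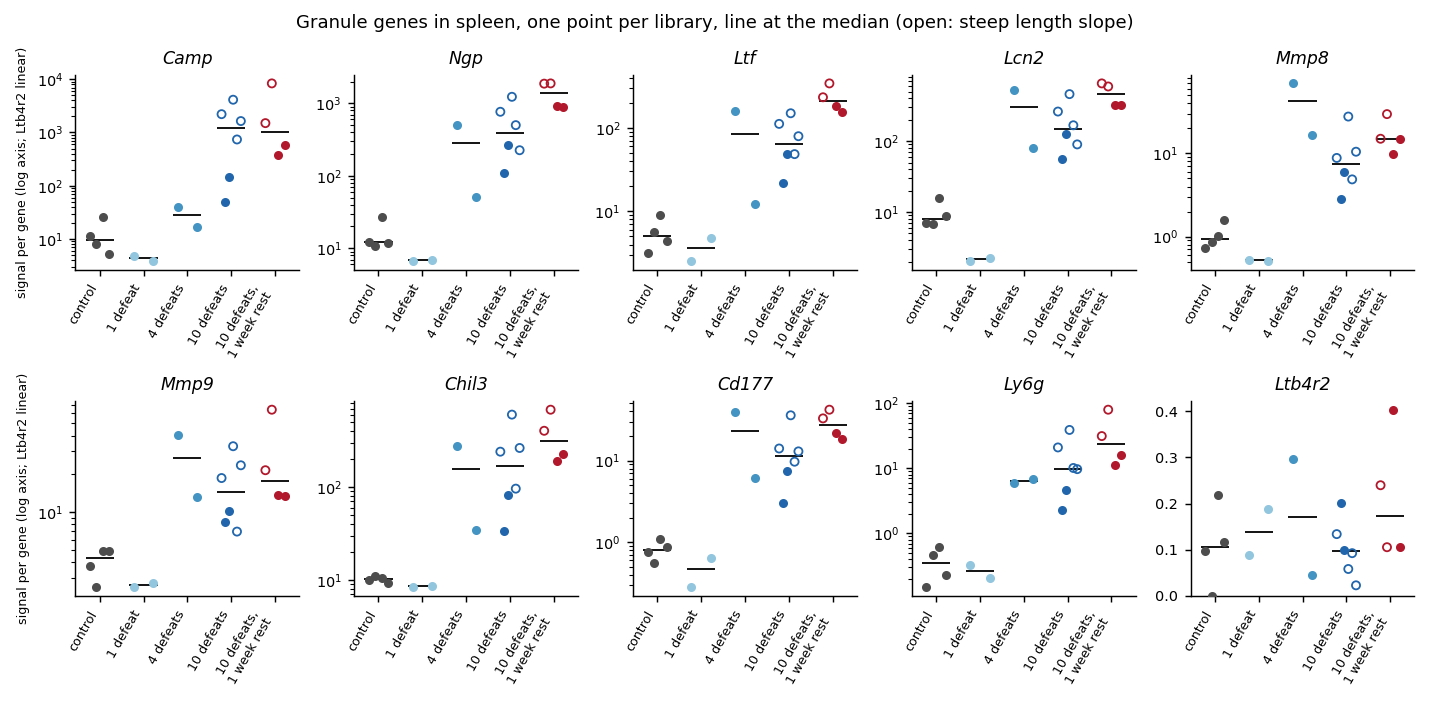
Signal per gene in each of 18 spleen libraries by group, on a log axis except for Ltb4r2 (linear); lines are group medians and open points are the 6 libraries low in long transcripts. For 9 genes all libraries with 10 defeats and all rested libraries lie above the 4 controls, and the open points of Camp (739 to 8368) lie above the filled ones.

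Spleen values did not return to control levels during the week of rest. Camp was at 1499.9, 8368, 382 and 587 in D1, D2, D3 and D8, and Ltf at 233, 341, 183 and 155. Both lay above every control, and 9 of 9 genes rose against controls, where 3.02% of all genes did. Camp rose by 6.78 ± 1.18 (limma adjusted p 0.00533, 110.1-fold) and Ngp, at 1873, 1888, 921 and 888, by 6.40 ± 0.70 (adjusted p 0.000156, 84.7-fold). Lcn2 rose by 5.48 ± 0.60, Ltf by 5.14 ± 0.64, Chil3 by 4.89 ± 0.74, Ly6g by 4.34 ± 0.63, Cd177 by 3.97 ± 0.55, Mmp8 by 3.07 ± 0.52 and Mmp9 by 2.26 ± 0.51. All rested libraries lay above all controls for 9 of 9 genes, as for 8.93% of all genes. In the fit without all 6 libraries low in long transcripts, D1 and D2 of this group among them, 9 of 9 were called, from 5.88 for Ngp to 1.56 for Mmp9. The call for Mmp9 was lost without D2, or without control C1, C2 or C4.

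Rested and 10-defeat spleens were not told apart: 0 of 9 genes were called, as were 0.567% of all genes (3081 had an unadjusted p under 0.05). The difference was 1.76 ± 0.64 for Ngp (limma adjusted p 0.154) and 0.61 ± 0.47 for Mmp9, positive for 9 of 9. Ltf differed by 1.75 ± 0.58 (adjusted p 0.131), and its 4 rested libraries all lay above the 6 with 10 defeats, as in 2.17% of all genes. From 1 to 10 defeats 9 of 9 genes rose (14.2% of all genes). Between 4 and 10 defeats Camp rose by 4.60 ± 1.36 (adjusted p 0.0418; 4.12% of all genes rose) and Mmp8 fell by 1.97 ± 0.60 (adjusted p 0.0433; 11.2% fell). Neither call held without the 6 libraries low in long transcripts, nor without D13, D6, D7, D9 or D10 singly, and that of Camp was also lost without D14; the counts are then 0.

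In spleen, other genes of the neutrophil lineage moved in both directions. In none of these lists were falls after 10 defeats more frequent than over all genes. Of 9 primary granule genes tested, 6 rose and 1 fell after 10 defeats (median 4.20): Mpo (myeloperoxidase) by 4.20 ± 0.43, Elane (neutrophil elastase) by 5.24 ± 0.54 and Prtn3 by 5.60 ± 0.61 (limma adjusted p 2.46e-05, 2.46e-05 and 3.69e-05). After rest 6 of 9 rose and none fell (median 4.51), with Mpo at 4.51 ± 0.46, Elane at 5.34 ± 0.59 and Prtn3 at 5.33 ± 0.67. Of 10 granulocyte transcription factors, 4 rose and 4 fell after 10 defeats, and 2 rose and none fell after rest. The median after 10 defeats was −0.11, and 0.39 under quantile normalization. Cebpe rose by 2.97 ± 0.53 and 3.83 ± 0.58 at these times, from 0.234 to 0.381 in controls to 2.10 to 26.0 and 9.43 to 40.0. After 10 defeats Cebpd, Klf5 and Myb also rose, while Irf8 fell by 1.28 ± 0.31, Runx1 by 1.02 ± 0.25, Cebpa by 0.85 ± 0.20 and Spi1, which encodes PU.1, by 0.49 ± 0.17 (adjusted p 0.00304, 0.00333, 0.00248 and 0.0207). Of 15 other secondary and tertiary granule genes, 6 rose and 4 fell after 10 defeats (median 0.20, and −0.08 with equal totals), with Fcnb (ficolin B) at 3.64 ± 0.48, Hp at 3.05 ± 0.58 and Stom (stomatin, also abundant in red cells) at 2.16 ± 0.27. After rest 5 rose and none fell. Of 15 late neutrophil genes, 9 rose and 2 fell after 10 defeats and 5 rose after rest, S100a9 by 5.54 ± 1.08 and 5.86 ± 1.18. Over all genes 16.8% rose and 41.9% fell after 10 defeats, and 3.02% rose and 4.24% fell after rest.

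Markers of other cells differed between the same spleen libraries. Of 11 erythroid genes, 10 rose after 10 defeats and 5 after rest. Their summed signal was 88847 to 204420 in controls, 79996 to 1241100 after 10 defeats and 278970 to 1563500 after rest. Of 10 mature B cell genes, 10 fell after 10 defeats and 1 after rest, with sums of 2480 to 2671, 381 to 1897 and 1051 to 1958. Eosinophil genes, which share the granulocyte lineage, rose for 4 of 9 and fell for 1 (Il5ra) after 10 defeats, and rose for 6 of 9 after rest (sums 71.9 to 92.7 in controls, 74.8 to 210.3 and 266 to 1035), with Ear1, an eosinophil ribonuclease, at 4.89 ± 0.41 after rest. No list gene of these 3 kinds was at 0 throughout the control, 10-defeat or rested spleens. Their part in the granule gene values was not tested.

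The ratios of members to Ltf differed by tissue and time. In marrow the ratio of Lcn2 to Ltf stayed between 1.03 and 1.30 in all 19 libraries, and that of Camp to Ltf between 0.976 and 1.75. The ratio of the protease Mmp8 to Ltf was 0.151, 0.147 and 0.172 in controls, 0.0825, 0.0660 and 0.0744 after 4 defeats, and 0.0595 to 0.116 after 10. All libraries of these 2 stressed groups lay below all controls, and the rested group, at 0.115 to 0.157, overlapped them. The ratios of Ngp, Mmp9 and Chil3 to Ltf also lay below all controls after 4 and after 10 defeats. Of these 2 times, those of Lcn2 and Cd177 did so after 10 defeats only. That of Ly6g did so after 4 only, and that of Camp at neither. After 1 defeat the ratio of Lcn2 to Ltf also lay below all controls, at 1.025 to 1.206 against 1.225 to 1.303. In the rested group only the ratio of Chil3 to Ltf lay below all controls, at 0.4306 to 0.4868 against 0.5389 to 0.6899. Ltf, the shared denominator, had the largest rise of the members tested in marrow after 4 defeats (1.10) and after 10 (1.52). Ratios below controls at these times therefore show only that a member rose less than Ltf. No share over all genes is given for these ratios.

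In spleen after 4 defeats the ratio of Mmp8 to Ltf was 0.440 and 1.34, above controls of 0.115 to 0.362. After rest it was 0.0543 to 0.0949, below them. After 10 defeats it was 0.0791 to 0.186 and overlapped them. Camp to Ltf in spleen was 1.20 to 3.56 in controls, 2.25 and 3.0 in D4 and D5, and 15.3 to 27.6 in the 4 libraries of 10 defeats that are low in long transcripts. Length and the other properties of these libraries move with this ratio, and their part in it was not tested. These ratios were described without a test.

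**Figure D5:**
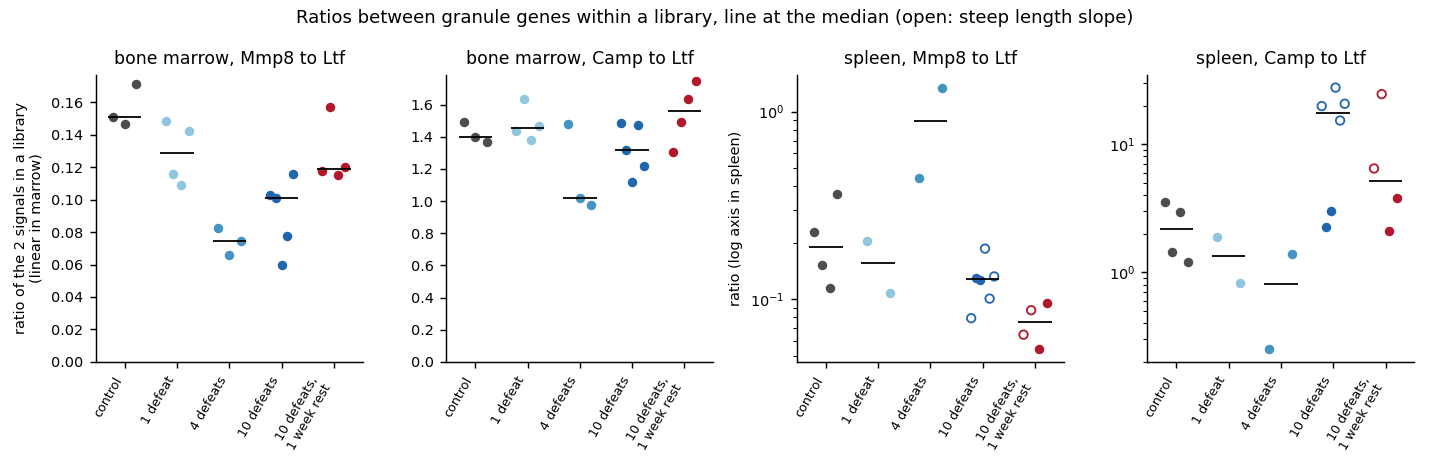
Ratio of the signals of Mmp8 and Camp to that of Ltf in each library, by group, with lines at medians; marrow axes are linear and spleen axes are log. Mmp8 to Ltf in marrow lies at 0.0660 to 0.0825 after 4 defeats against 0.147 to 0.172 in controls, and the open points of the spleen panels are the 6 libraries low in long transcripts.

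On the log2(signal + 1) scale, the change from control to 10 defeats was larger in spleen than in marrow for 7 of 9 genes. This was a test of the difference itself in a fit of all 37 libraries (16.1% of 14513 genes were higher in this test). In signal units, mean Camp went from 3555 to 9601 in marrow and from 12.8 to 1485 in spleen. Mean Ltf went from 2504 to 7390 in marrow and from 5.55 to 76.5 in spleen. The log2 gap was 4.39 ± 1.20 for Camp (limma adjusted p 0.00445), 3.38 ± 0.74 for Ngp, 2.85 ± 0.78 for Chil3, 2.53 ± 0.65 for Lcn2, 1.87 ± 0.69 for Ltf, 1.75 ± 0.66 for Ly6g and 1.44 ± 0.54 for Mmp8. Cd177 at 1.43 ± 0.60 (adjusted p 0.0525) and Mmp9 at 0.69 ± 0.55 (adjusted p 0.322) were not called. Without the 6 libraries low in long transcripts 3 were called, Ngp at 2.23, Lcn2 at 1.67 and Camp at 1.45. Leaving out marrow C1 or C2, or spleen C1 or D6, left 4. For the rested groups the gap was called for 8 of 9 genes (2.06% of all genes), from 6.13 ± 1.29 for Camp to 2.84 ± 0.58 for Mmp8, and not for Mmp9 (1.79 ± 0.59, adjusted p 0.0823). Without the 6 libraries the count was again 8, with Camp at 4.68.

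Ltb4r2 stayed under 1 in every library. Its signal was 0.382, 0.345 and 0.628 in control marrow, 0.0782 to 0.342 after 10 defeats and 0.444 to 0.872 after rest, and 0 to 0.403 in spleen. Without the filter it was lower after 10 defeats than in control marrow (−0.28 ± 0.10, limma adjusted p 0.0492) and higher after rest than after 10 defeats (0.45 ± 0.09, adjusted p 0.00861), the opposite order to the granule genes. All of these values lie below the filter of 1. The neighbouring gene Ltb4r1, 824 bp away, encodes the high-affinity leukotriene B4 receptor of neutrophils. It was at 60.9 to 71.0 in control marrow, 112 to 177 after 4 defeats and 107 to 176 after 10. It rose by 1.00 ± 0.22 and 0.91 ± 0.19 (adjusted p 0.00646 and 0.00163). In spleen Ltb4r1 rose by 1.54 ± 0.41 after 10 defeats and by 2.56 ± 0.45 after rest, from 0.835 to 1.64 in controls to 1.81 to 13.8 and 5.70 to 23.3. Chil4, a near copy of Chil3, was at 0.487 to 5.13 in marrow and at 0 in all control spleens, where Chil3 was at 9.26 to 10.9.

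Across libraries the 9 genes varied together. Over the 19 marrow libraries, which share the group differences above, the correlation of log2 signals between members ranged from 0.740 (Mmp8 with Cd177) to 0.993 (Ltf with Lcn2), with a median of 0.916. Over the 18 spleen libraries it ranged from 0.683 (Camp with Mmp8) to 0.982 (Ngp with Ltf), with a median of 0.928. Genes outside the set were ranked by likeness, leaving out immunoglobulin and T cell receptor segments and genes with Gm, Rik or clone names. Those most like the mean of the members in marrow were Mapk3 (r 0.987), Plp2 (0.986), Chil1 (0.985), Actg1 (0.985) and S100a9 (0.985). In spleen they were Itgb2l (0.982), Chil1 (0.982), Ltb4r1 (0.969), Hp (0.961) and S100a8 (0.958). Among single members, Ltf was closest to S100a9 in marrow (0.992), Ngp to Scp2 (0.993), Camp to Actb and Myl6 (0.980 each), Mmp9 to C5ar1 (0.981), Cd177 to Flot2 (0.989), Mmp8 to Gpr65 (0.966) and Chil3 to C3 (0.957). The order of group means in marrow was the same for 7 of the 9 genes: control, 1 defeat, rested, 4 defeats and 10 defeats from low to high. Mmp8 and Ly6g had the rested group above 4 defeats. Neighbouring groups in this order overlapped for 9 of 9 genes. In spleen 1 defeat had the lowest mean and control the next for 9 of 9 genes, and the rested group had the highest for all but Mmp8, which was highest after 4 defeats. The control libraries lay apart from those of the next higher group for each gene but Camp, while the rested libraries overlapped their neighbour in the order for 9 of 9.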

How the data were processed

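Polyadenylated RNA of femoral bone marrow (19 libraries) and spleen (18 libraries) was sequenced from TruSeq stranded libraries, per the labels' protocols. The authors deposited a signal per gene and library, scaled per library; kallisto 0.46.1, sleuth and the build GRCm38 are named in the submitters' processing notes, without their roles. The sources used here do not give which quantity was exported or how it was scaled. No count test was run, because the values are not read counts. Depth was estimated from the steps of low values in 9751 single-transcript genes of over 600 bp with an assumed fragment of 200 bp; 60% to 76.6% of low values lay within 0.1 of a whole read.

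Groups follow the labelled tissue and treatment. Numbers in titles are shared between tissues, but whether they mark the same animal is not given, so none were paired. The 5 groups of a tissue entered a linear model of log2(signal + 1) in limma 3.58.1 (R 4.3.3), with empirical Bayes moderation set to trend and robust. A gene entered when its signal reached 1 in enough libraries to fill the smallest group, 12442 in marrow and 13945 in spleen. A model of all 37 libraries on 14513 genes compared the tissues and tested the difference of the stress effects. The Benjamini-Hochberg adjustment ran over all genes of a comparison, with a threshold of 0.05. The procedure was tested on simulated data. Gene models came from GENCODE M21, with 99.3% of identifiers matched, and promoters from RefSeq.

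The members and gene lists were chosen with earlier results of these data known, and so were the tests. All members were named, with up to 3 genes of smallest p per list and comparison and the genes most like them (5 per tissue for the mean, up to 2 per member); Cebpe after 10 defeats, Ltb4r1, Chil1 and Chil4 were also given for their relation to members, and the transcription factors and Il5ra called in spleen were named after their values were seen. Alternatives were quantile normalization, median-ratio rescaling, equal totals with or without globin genes, no filter, a pseudocount of 0.1, no trended or robust prior, fits of only the groups compared, a block for the shared number and leaving out each replicate. Removal of the length trend, omission of the 6 spleen libraries whose length slope passed −0.2 and library weights were chosen after seeing the data.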

Additional observations from a re-analysis of the deposited data

Results flagged for a closer look

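Some single libraries lay far from the others of their group by Dixon's criterion, in 16 of 60 combinations of a gene and a group of 4 to 6 libraries. By chance about 1 in 20, or 3, would do so if genes were independent. The members vary together, so 16 and 3 cannot be compared directly. Most of the 16 came from a few libraries across many genes. In marrow after 10 defeats, D6 stood apart for Ltf (11270), Lcn2 (13430), Chil3 (4864) and Cd177 (1269). In rested marrow, D1 stood apart for Ngp (14150), Ltf (5226), Lcn2 (6535), Chil3 (2251), Cd177 (723.5) and Ly6g (307.5). After 1 defeat in marrow, D17 stood apart for Ngp (11850). In spleen after 10 defeats, D6 stood apart for Mmp8 (27.79) and Cd177 (35.82), in rested spleen D2 for Camp (8368) and Mmp9 (64.29), and in control spleen C3 for Ngp (27.4). In each case the library was the highest of its group.

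Differences between tissues in the effect of stress were the other kind. The change after 10 defeats was larger in spleen, on the log2 scale, for Camp (4.393), Ngp (3.38), Chil3 (2.848), Lcn2 (2.533), Ltf (1.867), Ly6g (1.747) and Mmp8 (1.44). That of the rested group was larger for Camp (6.13), Ngp (5.841), Lcn2 (5.013), Chil3 (4.736), Ltf (4.599), Ly6g (3.746), Cd177 (3.467) and Mmp8 (2.841). Each has a limma adjusted p under 0.05 in the test of the difference itself.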

How the results depend on the processing

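Each count of members called was recomputed under every alternative. Of the recomputed differences of single members, 2729 kept direction and side of the threshold, 141 lost the call, 57 gained it and 41 changed sign. Of these 41, only those of Camp (0.035) and Ngp (0.045) in rested against 10-defeat marrow, under quantile normalization, had been called (limma adjusted p 0.83 and 0.914). No difference was called after its change of sign.

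The other changes of sign were these. For 1 defeat in marrow, quantile normalization gave −0.064 for Ngp, −0.037 for Mmp9 and −0.080 for Chil3. Equal totals without globin gave −0.00044 for Mmp9 and −0.054 for Chil3, equal totals −0.045 for Chil3, library weights −0.018 for Mmp9 and −0.0060 for Chil3, and median-ratio rescaling 0.072 for Mmp8. Leaving out 1 library each gave −0.0091 to 0.22 for Lcn2, −0.074 to 0.24 for Mmp9 and −0.080 to 0.15 for Chil3, each lowest without D17, and −0.11 to 0.11 for Mmp8. For 4 defeats in marrow, Mmp8 was at −0.32 under quantile normalization, −0.29 with equal totals without globin, −0.027 with weights and −0.16 (without D12) to 0.17 (without D11) with 1 library left out. From 4 to 10 defeats in marrow, quantile normalization gave −0.12 for Ngp, −0.22 for Ltf and −0.24 for Lcn2, and Cd177 ran from −0.045 without D11 to 0.45 without D12. For 1 defeat in spleen, Ly6g was at 0.021 under quantile normalization, 0.019 with the length trend removed and 0.011 with weights. From 4 to 10 defeats in spleen, equal totals gave −0.49 for Ltf, −0.44 for Chil3 and −0.34 for Ly6g. There the fit without the 6 steep-slope libraries gave −0.45, −0.90 and −0.76 for the same genes. From the fit without D14 to that without D13, Ngp went from −0.41 to 2.88, Ltf from −1.29 to 2.29, Chil3 from −0.92 to 2.07, Lcn2 from −1.79 to 0.91, Mmp9 from −1.43 to 0.14 and Cd177 from −1.77 to 0.73. Camp in rested against 10-defeat spleen was at −0.88 with weights.

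Counts of calls that moved by over 1.5 times follow, and the cause was not tested. With quantile normalization, rises in marrow after 4 defeats numbered 3 instead of 5, and falls after rest against 10 defeats 0 instead of 8 (3 with equal totals, 5 with equal totals without globin). The single rise from 4 to 10 defeats in marrow became 0 under all 4 rescalings, with no filter and in a fit of only the groups compared, and 4 with library weights. Without a filter, Ltb4r2 added 1 fall after 10 defeats and 1 rise after rest against 10 defeats in marrow. Rested marrow against control had 1 rise in a fit of only those groups and 3 with library weights. In spleen, 1 defeat gave 1 fall in a fit of only the groups compared and 1 with library weights. The 2 rises after 4 defeats became 0 with median-ratio rescaling, 7 with equal totals, 1 with no filter, 1 in a fit of only the groups, 5 without the 6 steep-slope libraries and 8 with library weights. After 10 defeats there were 5 rises instead of 9 without the 6 libraries. From 4 to 10 defeats in spleen the rise became 0 with no filter, only the groups or without the 6 libraries, and 2 with weights; the fall became 0 under quantile, median-ratio, no filter, pseudocount 0.1, only the groups or without the 6 libraries, and 3 with equal totals. The 10-defeat gap between tissues was called for 4 with no filter and 3 without the 6 libraries. Smaller shifts included 6 of 9 rises after 10 defeats in marrow under quantile normalization and 8 with equal totals without globin, against controls and against 1 defeat alike, and 5 calls of the 10-defeat gap with equal totals.

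Leaving out 1 replicate each gave 0 to 6 rises in marrow after 4 defeats, 0 to 3 from 4 to 10 defeats, 4 to 9 falls after rest against 10 defeats, 0 to 6 rises in spleen after 4 defeats, 8 to 9 after rest and from 1 to 10 defeats, 0 to 1 rises and 0 to 1 falls from 4 to 10 defeats, and 4 to 8 and 8 to 9 calls of the gap between tissues after 10 defeats and rest. Rescaling also moved all genes: in marrow after 10 defeats, 2177 higher and 3517 lower genes (median −0.13) became 2763 and 2298 under quantile normalization and 603 and 8017 (median −0.53) with equal totals without globin. In spleen, 2348 and 5848 (median −0.36) became 3930 and 3448 under median-ratio rescaling and 802 and 7461 (median −0.85) with equal totals. Libraries of the same number deviated together in some pairs and not in others (15 correlations of −0.229 to 0.401, 7 above 0.1, own number best in 8 of 15). These values do not decide whether a number marks the same animal, and the libraries were not taken as paired. With a replicate block the control gap was called for 9 and the stress gaps for 8 and 9 genes instead of 7 and 8.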
